A study of Drosophila melanogaster with 2 samples.

Results

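The peaks described here are those called on chromosome 4, the small dot-shaped autosome of Drosophila melanogaster, for the protein encoded by CG12769. Every peak of the pooled peak list that lies on chromosome 4 was taken, which gave 206 of 30000 pooled peaks. The other 29794 lie on the arms 2L, 2R, 3L, 3R and X. The study measured 1 group. Male and female embryos were pooled whole at 10 to 24 h of age; they belong to a transgenic fly line that stably carries CG12769 fused at its C-terminus to GFP, and chromatin was precipitated with an antibody against GFP (ChIP-seq). All samples carry the transgene, and the labels name neither its promoter nor the cells that make the tagged protein. Whole embryos were used, so a peak cannot be given to any cell type. There were 2 biological replicates, numbered 5 and 7, and no control library was used here. No contrast between conditions exists in this design: chromosome 4 is compared with the other arms of the same libraries, and the pooled list with the lists of each replicate. The IDR set, a smaller list of peaks that the authors kept for their reproducibility between replicates, held 36 peaks on chromosome 4.

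Chromosome 4 is known for being rich in repeats and for carrying marks of heterochromatin, the compact chromatin that silences genes elsewhere, along most of its gene-bearing part. Heterochromatin protein 1 coats it together with POF, a protein that binds mainly this chromosome. Its genes are nevertheless expressed, and several of them are regulators of embryonic development such as ci, ey and toy.

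The bases under 10 summits are shown here, since the summit is where a bound sequence would be sought. They are the 3 promoter and 3 intron summits of highest value without annotated UTR bases, and 4 windows added after the values had been seen: the strongest peak of the chromosome, the ey and Actbeta windows with a DRE (the element TATCGATA, bound by the factor DREF), and the IDR peak in a transposable element. The windows are, in the order printed, chr4:497864-497964, chr4:660043-660143, chr4:1027208-1027308, chr4:558704-558804, chr4:626091-626191, chr4:486692-486792, chr4:662261-662361, chr4:696844-696944, chr4:1084839-1084939 and chr4:181787-181887 of dm6, read 5′ to 3′ on the plus strand from the NCBI RefSeq copy of Release 6. Capitals mark matches, on either strand, to any of the 10 motifs named further on.
zfh2 upstream: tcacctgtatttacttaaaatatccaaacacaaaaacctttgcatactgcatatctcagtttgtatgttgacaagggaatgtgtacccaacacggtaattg
gw promoter: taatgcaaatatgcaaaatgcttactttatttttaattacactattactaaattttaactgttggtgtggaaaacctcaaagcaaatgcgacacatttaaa
PlexA promoter: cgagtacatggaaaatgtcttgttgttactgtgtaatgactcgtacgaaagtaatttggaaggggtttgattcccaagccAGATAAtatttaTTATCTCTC
Pur-alpha intron: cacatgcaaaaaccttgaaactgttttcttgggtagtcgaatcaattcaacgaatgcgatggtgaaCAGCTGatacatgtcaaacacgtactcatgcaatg
mav and mir-954 promoter: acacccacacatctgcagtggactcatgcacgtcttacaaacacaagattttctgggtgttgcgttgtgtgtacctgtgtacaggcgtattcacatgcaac
Asator intron: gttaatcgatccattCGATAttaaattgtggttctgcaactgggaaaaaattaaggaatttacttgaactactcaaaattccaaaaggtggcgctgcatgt
CG46466 intron: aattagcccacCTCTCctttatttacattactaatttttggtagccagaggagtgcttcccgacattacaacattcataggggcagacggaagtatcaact
ey upstream: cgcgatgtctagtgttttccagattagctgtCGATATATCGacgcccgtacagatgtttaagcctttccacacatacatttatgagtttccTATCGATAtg
Actbeta promoter: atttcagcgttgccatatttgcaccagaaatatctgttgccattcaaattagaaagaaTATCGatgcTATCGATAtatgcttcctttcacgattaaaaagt
element 1360: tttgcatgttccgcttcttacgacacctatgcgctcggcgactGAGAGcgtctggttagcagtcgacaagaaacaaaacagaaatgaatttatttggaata
The zfh2, gw and mav windows hold no match. The ey and Actbeta windows each hold a complete DRE, and both also hold a further CGATA. Besides the element 1360 window, the CG46466 window overlaps an annotated transposable element, though its summit lies outside any.

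Peaks were sparser on chromosome 4 than on any other arm. There were 155 pooled peaks per Mb of assembled bases on chromosome 4, against 225 per Mb on the 5 other arms together, where single arms ranged from 208 per Mb on X to 247 per Mb on 3L. Chromosome 4 held 0.687% of the pooled peaks (exact 95% interval 0.596 to 0.787%) and 0.996% of the bases, a ratio of 0.687 (exact two-sided binomial test, p = 1.367e-08). In the IDR set the ratio was 0.419. The units of this and every other test here are peaks of 1 set of lists, not animals: the p-values describe these lists, and no test over samples could be made. Each peak was counted as an independent unit, although 50 peaks of chromosome 4 overlap another of them. The p-values and exact intervals may therefore look firmer than they are, and by how much was not tested. Counted per annotated transcription start site (TSS), peaks were not distinguishably sparser, with a ratio of 0.884 (exact binomial test, p = 0.0811), and 2R, with 110 peaks per 100 TSSs, stood below chromosome 4 with 113. Against 73 windows of the other arms with at least 20% of their bases in transposable elements, a comparison added after the data had been seen, chromosome 4 was 2.46 times denser (155 against 63.0 peaks per Mb, exact binomial test, p = 1.802e-23). These windows are not matched to chromosome 4: transposable elements make up 39.6% of their bases and 25.1% of those of chromosome 4.

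Along the chromosome the peaks ran from near the start of PlexB, a semaphorin receptor gene, to Cadps, with gaps. In windows of 100 kb from the left end, the counts were 19, 19, 21, 11, 25, 18, 14, 15, 11, 14, 20, 14, 5 and 0, the last window being shorter. No IDR peak lay in the neighbouring windows with 15 and 11 peaks, right of the gene gw, nor in the last 2. The longest stretch without a summit was the distal 96.9 kb, from inside Cadps, which primes dense-core vesicles for release, to the end of the assembly; 85.1% of its bases are annotated transposable elements, it holds no TSS, and neither replicate list has a summit there. The next stretch, 48.4 kb between the asRNA:CR44029 and mGluR genes, contains eIF4G1, a translation initiation factor, and part of unc-13, which primes synaptic vesicles; replicate 7's own list has 4 summits in it and replicate 5's list has 0. Stretches of 47.2 kb inside and beyond zfh2 and 39.5 kb around Kif3C and pho followed, and the left end had 43.2 kb without a summit around JYalpha. Neighbouring summits were a median 1592 bp apart on chromosome 4, against medians of 1014.5 to 1151 bp on single other arms, and 50 of the 206 peaks overlapped a neighbour.

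**Figure D1:**
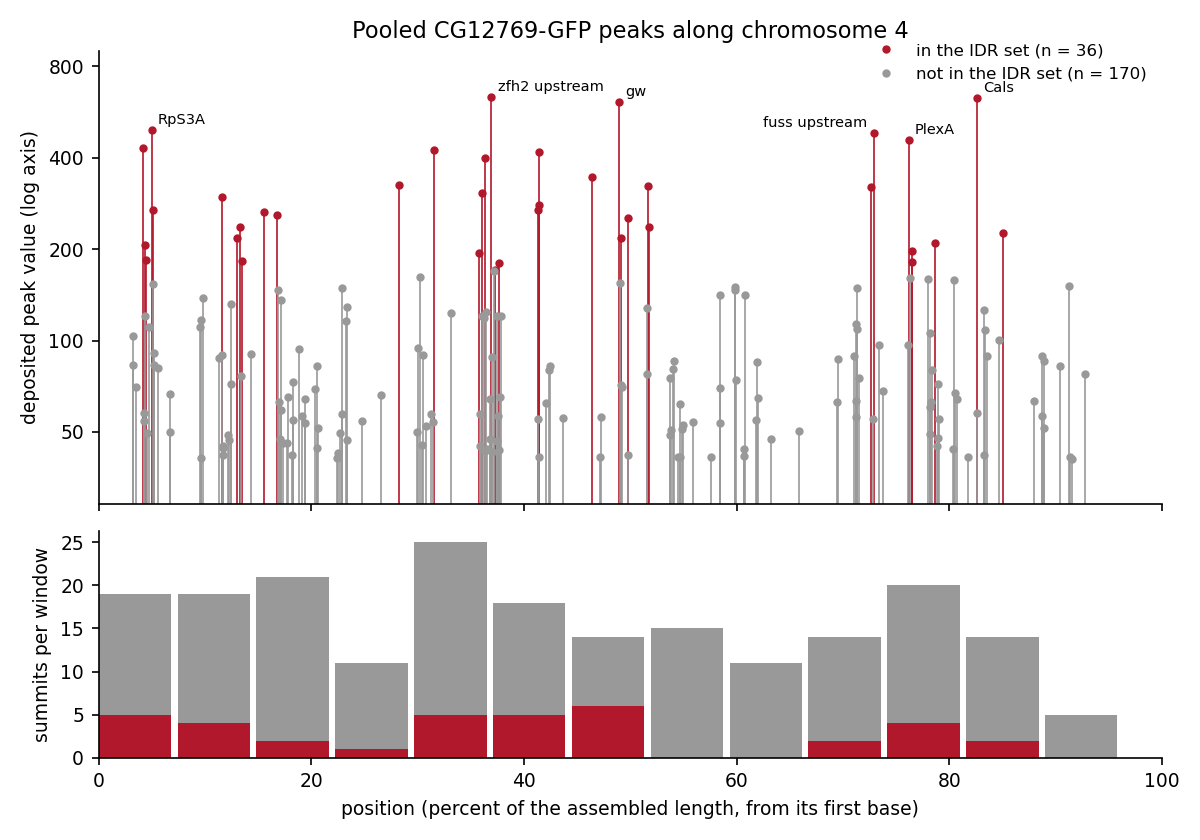
Upper panel: each stem is 1 of the 206 pooled peaks of chromosome 4, placed by its summit as a percent of the assembled length (x axis), with the deposited peak value on a log axis (y axis); red marks the 36 peaks of the IDR set and grey the other 170. Lower panel: summits per window of 100 kb, with 25 in the fullest window and 0 in the last, shorter one.

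The value that the authors' peak caller gave each peak has no stated scale and is used here to rank peaks within 1 list. On chromosome 4 the pooled values ran from 40.8 to 633 with a median of 75.8, against a median of 98.2 and a maximum of 16058 on the other arms. The strongest chromosome 4 peak of each list stood at rank 1214 in the pooled list, at rank 1541 in replicate 5 and at rank 730 in replicate 7. Chromosome 4's share was smaller at the strong end of the pooled list than at the weak end. It held 10 of the 3000 strongest peaks (0.333%, exact 95% interval 0.160 to 0.612%) and 34 of the 3000 weakest (1.13%, 0.786 to 1.58%). The steps of 3000 peaks between them held 14, 13, 20, 17, 26, 18, 26 and 28. In the list of replicate 5 the first and last steps held 8 and 22 peaks, and in that of replicate 7 they held 8 and 36. Since each list ends at 30000 peaks, how many weaker peaks chromosome 4 would hold cannot be read from them.

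**Figure D2:**
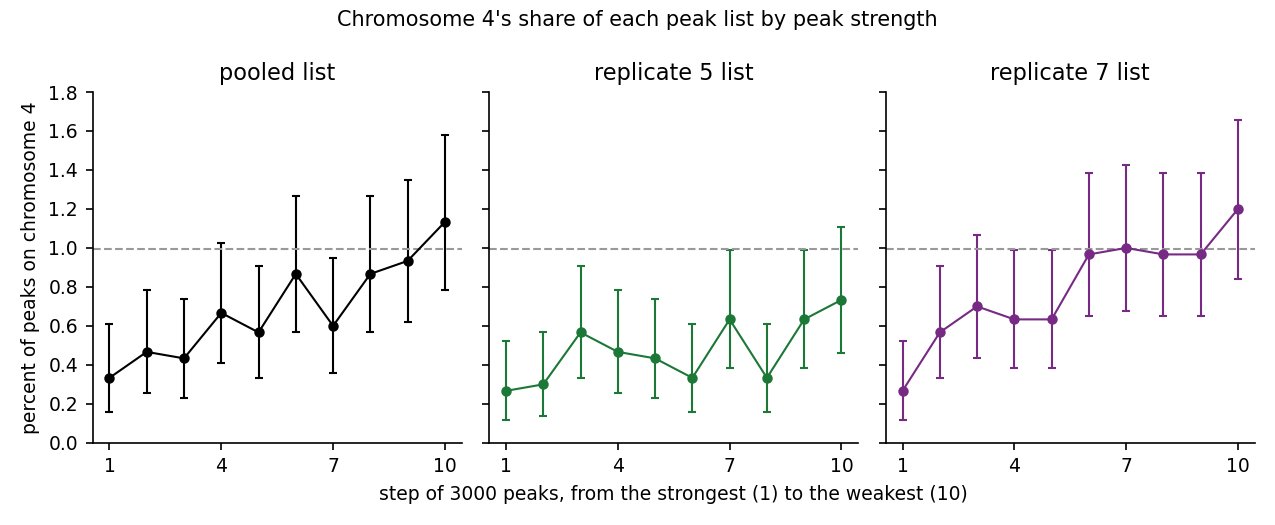
Percent of peaks on chromosome 4 (y axis) in 10 successive steps of 3000 peaks, from the strongest to the weakest (x axis), in the pooled list and the lists of replicates 5 and 7. Bars are exact 95% intervals over peaks and the dashed line is chromosome 4's share of the bases, 0.996%; the first step lies below it in all 3 lists.

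The IDR set, which holds 28.6% of all pooled peaks, held 36 of the 206 on chromosome 4 (17.5%, exact 95% interval 12.6 to 23.4%), against 28.7% of those on the other arms (odds ratio 0.527, Fisher's exact test, two-sided, p = 0.000325 adjusted over 5 comparisons). The 36 members of the set had values from 171 to 633 and the other 170 had values of at most 169, so membership followed the value. Just inside the threshold was a peak in the intron of zfh2, a zinc-finger and homeodomain factor, with a value of 171, and just outside it the peak at the TSS of the same gene, with 169. Among the 15000 strongest pooled peaks, where 74 of the members lie, the odds ratio was 0.709 (Fisher's exact test, adjusted p = 0.197), and against the windows rich in transposable elements it was 0.667 (exact test, adjusted p = 0.112). Of the 206 peaks, 193 were 390 bp wide, the modal width, and all 13 narrower ones were in the IDR set.

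The 15 strongest peaks lie in 6 intergenic places, 6 promoters, 2 introns and 1 3′ UTR, and both replicates hold all 15. First came the intergenic peak at chr4:497777-498019, 3896 bp upstream of zfh2, with a pooled value of 633 and replicate values of 245 in replicate 5 and 399 in replicate 7. The second, at chr4:1113176-1113479, had 627 (128 in replicate 5 and 490 in replicate 7) and lay in the 3′ UTR of Cals, which encodes a calsyntenin, a membrane protein of synapses, where Cals converges with the Pax gene sv. A promoter inside gw, whose product acts in silencing by microRNAs, had 611 (219 and 382), with its summit 110 bp upstream of an internal TSS. The outer TSS of gw has a separate peak of 155 outside the IDR set. The promoter of the ribosomal protein gene RpS3A had 494 (187 and 310), with the summit 28 bp upstream. The 4 strongest peaks were each higher on replicate 7's scale than on replicate 5's, but the lists' scales may differ. Ranks are compared instead: 11 of the 15 strongest peaks ranked better in replicate 7.

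Next were an intergenic peak 4505 bp upstream of fuss, a gene of the Ski and Sno family, with 482, and the promoter of PlexA, a receptor for semaphorins that guides axons, with 458. A promoter inside ci, the gene for the transcription factor of Hedgehog signalling, had 431. That peak also covers the start of asRNA:CR43957 and cannot be given to either gene. An intergenic peak 1254 bp upstream of lncRNA:CR43437 had 424. The intron peak in Pur-alpha, which encodes a single-stranded nucleic acid binding protein, had 419 and lay 531 bp downstream of a TSS, just past the distance that counts as promoter. Asator, a kinase gene, had a peak of 399.5 at 547 bp upstream of its TSS and an intron peak of 305. The promoter shared by mav, a TGF-beta ligand, and the microRNA gene mir-954 had 346, and the TSS of lncRNA:CR45125, inside the zinc-finger gene dati, had 326. The remaining 2 were 795 bp upstream of ey, the Pax6 gene of eye development, with 323, and 1546 bp upstream of fuss, with 319.

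Summits on chromosome 4 lay at promoters more often, and in introns less often, than summits on the other arms. Within 500 bp of a TSS were 91 of 206 summits (44.2%, exact 95% interval 37.3 to 51.2%), against 25.9% on the other arms, where single arms ranged from 24.4 to 30.0% (odds ratio 2.26, Fisher's exact test, adjusted p = 2.705e-08). In introns outside promoters were 48 summits (23.3%, 17.7 to 29.7%), against 50.9% on the other arms, with single arms from 47.7 to 58.1% (odds ratio 0.293, exact test, adjusted p = 4.586e-15). Intergenic shares were 18.4% on chromosome 4 and 17.9% on the other arms (odds ratio 1.04, exact test, adjusted p = 0.785), whose intervals, 13.4 to 24.4% and 17.4 to 18.3%, overlap. Single other arms ranged from 12.1% on X to 23.2% on 3L, and against X alone the odds ratio was 1.64 (exact test, adjusted p = 0.00944). In the IDR set the promoter share was 20 of 36 on chromosome 4 and its odds ratio was 1.86 (exact test, adjusted p = 0.0945). Against the windows rich in transposable elements the promoter odds ratio was 1.31 (exact test, adjusted p = 0.153), while the intron odds ratio was 0.457 (adjusted p = 0.000152).

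Set against the bases of chromosome 4 itself, promoters held 4.06 times their share of bases, which is 10.9% (exact binomial test, adjusted over 7 categories, p = 4.484e-33); on the other arms the same ratio was 1.91. Introns held 0.556 times their share (exact test, adjusted p = 8.964e-08), against 1.29 on the other arms, and coding sequence held 0.409 times its share (16 summits, adjusted p = 2.491e-05), against 0.109. Without replicate 7 the ratio of coding sequence was 0.261, among the 15000 strongest pooled peaks it was 0.142, and in the IDR set it was 0, each past the threshold in the same direction. The 3′ UTRs held 0.333 times theirs with 5 summits (exact test, adjusted p = 0.0077). That call was lost without replicate 5, where the ratio was 0.638 (exact test, adjusted p = 0.233), among the 15000 strongest pooled peaks (0.186, adjusted p = 0.0756) and in the IDR set (0.382, adjusted p = 0.724). The 3 summits in 5′ UTRs, 5 in noncoding exons and 38 in intergenic sequence were not past the threshold against their bases (exact tests, adjusted p = 0.352, 0.466 and 1). Coding sequence held 7.77% of the summits on chromosome 4 and 1.49% of those on the other arms, an odds ratio of 5.58 by a Fisher's exact test added after the data had been seen (adjusted over 7 categories, p = 3.152e-07). None of the 16 coding summits is in the IDR set, 11 are held by replicate 7 only and 3 by both replicates, and the strongest, in CG33978, has a value of 132.

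**Figure D3:**
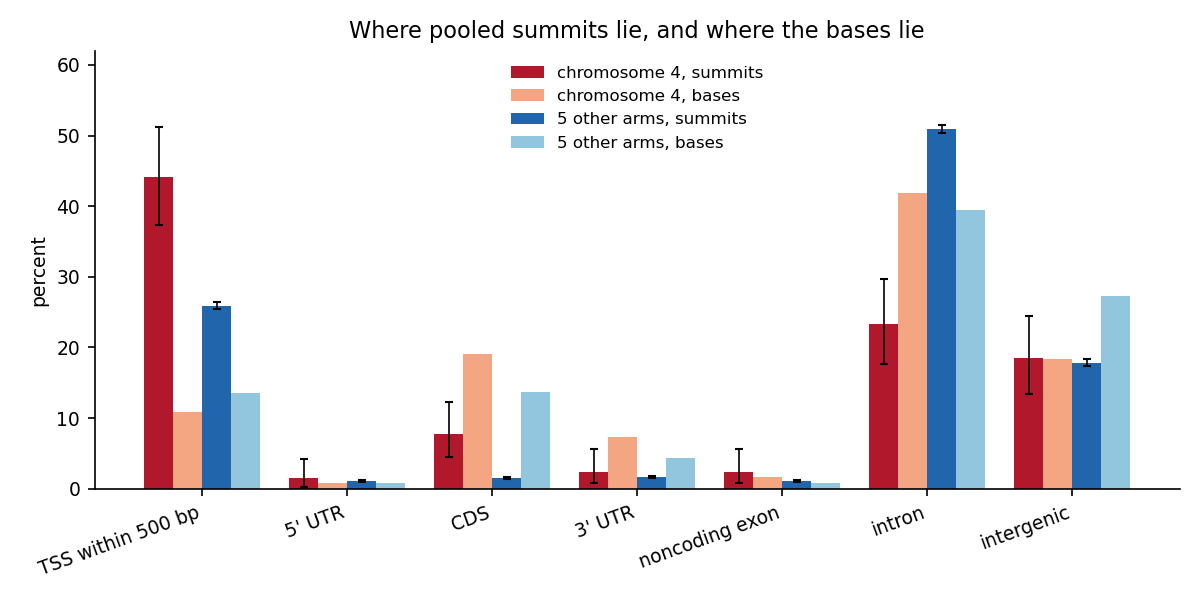
Percent (y axis) of pooled summits and of assembled bases in each of 7 annotation categories (x axis), each summit and base counted in the first that applies, for chromosome 4 (red shades) and the 5 other arms (blue shades). Error bars are exact 95% intervals over peaks; promoters hold 44.2% of chromosome 4 summits and 25.9% of the others, and introns 23.3% and 50.9%.

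Within promoters, summits had a median offset from the TSS of −31 bp on chromosome 4 and −35 bp on the other arms. Negative offsets are upstream. Upstream of the TSS or on it lay 54 of the 91 (59.3%), against 58.9% on the other arms (56.1 to 62.1% on single arms). Promoter members had a median value of 103, and both replicates held 66 of the 91. Of the intron members both held 26 of 48, and of the intergenic members 23 of 38.

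Most protein-coding genes of chromosome 4 had a peak at a TSS. They were 57 of 80 (71.3%, exact 95% interval 60.0 to 80.8%), against 34.6% of those on the other arms and 34.9% of all protein-coding genes. In the IDR set the share was 25.0% on chromosome 4 (16.0 to 35.9%) and 21.3% on the other arms. These shares were not tested. Coding genes of chromosome 4 have more start sites, a mean 1.78 positions per gene against 1.38, and are longer, with a median of 10.1 kb against 2.16 kb; the part of either in the shares was not tested. A peak at a TSS was also found for 9 of 27 noncoding RNA genes, with mature microRNAs not counted apart from their gene, and 1 of 7 pseudogenes. With neither a summit in its span nor one at a TSS were 16 coding genes.

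The 5 groups of named genes by role, 48 genes in all, covered most of the well-known genes of the chromosome, and 36 of them had a TSS peak, 12 in the IDR set. Over all 80 coding genes of the chromosome it was 57 (71.3%), and 20 (25.0%) in the IDR set. The groups are small, and their differences from these shares were not tested. Among transcription factor and chromatin genes, 9 of 15 had a TSS peak, 2 of them in the IDR set. Their highest TSS values were 431 at ci, 236 at ey, 169 at zfh2 and 154 at pan, the TCF factor of Wingless signalling. No TSS peak was listed for fd102C, onecut, pho, Hcf, dati or lgs. Of these, pho encodes a DNA-binding member of the Polycomb group, and lgs a Wingless co-activator with a TSS peak in replicate 7's own list.

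Among genes listed under axon guidance and intercellular signalling, 9 of 10 had a TSS peak, 3 in the IDR set. Dyrk3 and PIP4K, both with a TSS peak, are kinase genes that were placed in this list. The highest TSS values in the list were 458 at PlexA, 346 at mav, 265 at the adaptor gene Crk and 158 at Actbeta, an activin-type ligand. Eph, the ephrin receptor, had no TSS peak. Among synapse and transport genes of neurons, 6 of 9 had one and 0 were in the IDR set. CaMKII, a kinase of synaptic plasticity, had 159, Cadps 151, Cals 126 and PMCA, a calcium pump, 66.3, while unc-13, Ekar and Gat had none. Both replicate lists have a TSS summit of their own at 3 of these 9 genes. The Cadps peak also lies within 500 bp of a TSS of Dyrk3 and was counted in the signalling group as well. Likewise, 1 peak was counted for Ephrin, of the signalling group, and for ND-49, of the protein synthesis, energy and general cell group.

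Among protein synthesis, energy and general cell genes it was 9 of 10, with 5 in the IDR set. Following gw and RpS3A were 279 at Tdg, a DNA glycosylase gene whose start lies beside that of Pur-alpha, and 197 at ATPsynbeta, a subunit of ATP synthase. The exception was eIF4G1. Under muscle and cytoskeleton, 4 genes were listed. Zyx, an adhesion protein gene, and apolpp, a lipoprotein gene that starts beside it, share 2 TSS peaks, with values of 210 and 71.8. The highest TSS value of bt, which encodes the muscle protein projectin, was 75.3, and JYalpha had no TSS peak.

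The genes with most summits in their span were bt with 10, zfh2 with 8, CG33978 and Sox102F with 7 each, and Asator and asRNA:CR43957 with 6 each, as many as pan. Together the first 6 spans hold 44 of the 206 peaks. None of the 10 in bt, the longest of these genes at 52.1 kb, is in the IDR set, and its highest value is 85.5. All 8 in zfh2 are intronic and 2 are in the IDR set. The counts are not corrected for gene length. Per 10 kb, asRNA:CR43957 had 9.05 summits, CG33978 3.87, Asator 3.06, Sox102F 2.06, zfh2 2.05 and bt 1.92. Chromosome 4 as a whole had 155 per Mb.

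A smaller share of the pooled peaks was held by both replicate lists together on chromosome 4 than on the other arms. Overlapping a peak of both lists were 123 of 206 (59.7%, exact 95% interval 52.7 to 66.5%), against 79.3% on the other arms and 79.2% of all pooled peaks (odds ratio 0.386, Fisher's exact test, adjusted p = 5.353e-10). Replicate 7 alone held 66 (32.0% on chromosome 4, 11.1% on the other arms), replicate 5 alone held 10 (4.85% and 7.79%), and neither list held 7 (3.40% and 1.78%). Replicate 5's list covered 133 members (64.6%), against 87.1% of pooled peaks on the other arms, whereas replicate 7's list covered 189 (91.7%), against 90.4%. Without replicate 5, asking only for overlap with replicate 7, the odds ratio was 1.18 (exact test, adjusted p = 0.785). Among the 15000 strongest pooled peaks the odds ratio for both lists was 0.396 (exact test, adjusted p = 0.0663).

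The replicates' own lists differed in the same way. Replicate 5 has 141 peaks on chromosome 4 and replicate 7 has 237, a ratio of 1.68, against ratios of 0.959 to 1.02 on the 5 other arms. In the windows rich in transposable elements it was 1.13. Of replicate 5's peaks on chromosome 4, 118 of 141 (83.7%) overlap a peak of replicate 7, against 77.3% on the other arms; of replicate 7's, 124 of 237 (52.3%) overlap one of replicate 5, against 80.9%. Each list holds 30000 peaks, so a larger share for chromosome 4 means a smaller one elsewhere. With 1 library per replicate, whether this is a property of the embryos or of the libraries cannot be told apart.

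**Figure D4:**
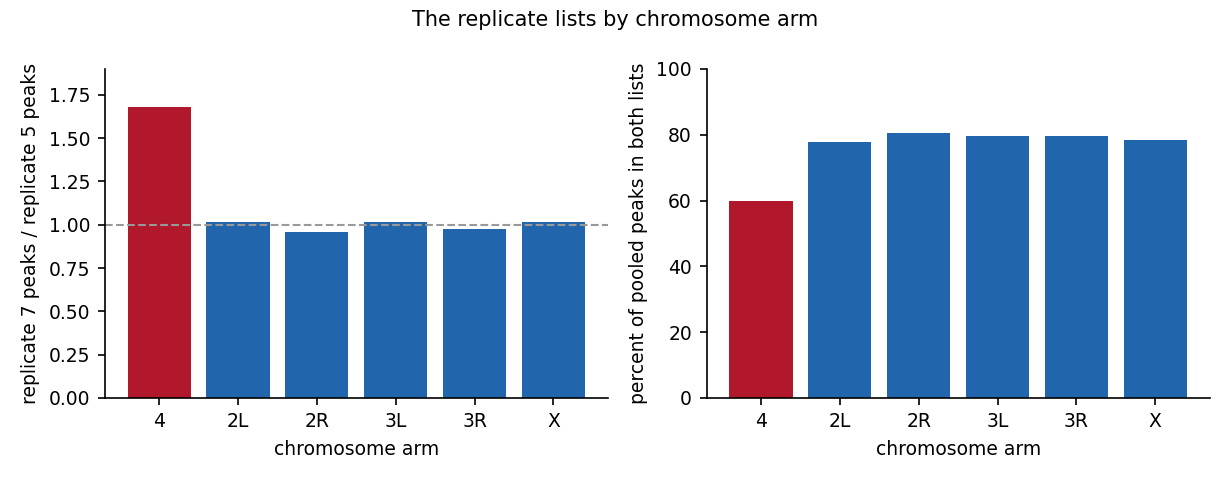
Left: peaks in replicate 7's list divided by peaks in replicate 5's list (y axis) for chromosome 4 (red) and each other arm (blue); the dashed line marks equal numbers, and chromosome 4 stands at 1.68. Right: percent of pooled peaks that overlap a peak of both lists, 59.7% on chromosome 4 and 79.3% on the other arms together.

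Strong members were mostly held by both replicates. Among the 103 strongest members 88 were, and among the other 103 it was 35. In the IDR set 35 of 36 were. The exception was the peak at the TSS of Crk, with a pooled value of 265 and a value of 151 in replicate 7. That peak is the strongest member held by 1 replicate only. The IDR set was kept for reproducibility between these replicates, and the pooled values come from the same libraries. The way strong and IDR members were chosen thus favoured their presence in both lists. These shares are therefore no separate evidence of reproducibility. The strongest member in neither list, with a value of 52.3, is intergenic, 10369 bp upstream of lncRNA:CR43437; at the TSS of Syt7, a synaptotagmin, another such peak has 49.4. Across the 123 members in both lists, Spearman's rho between the replicates' values was 0.839, against 0.785 on the other arms, where points share the embryos and both libraries; their summits were a median 32 bp apart, against 42 bp. Replicate 7 gave the better rank to 88 of the 123 (71.5%), against 51.5% on the other arms. Pooled peaks that overlap the same replicate peak repeat its value, such as neighbours at a TSS of Sox102F, with 78.9 in replicate 5 and 111 in replicate 7. The rho and the count of better ranks thus include repeated points, and the part of these was not tested.

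**Figure D5:**
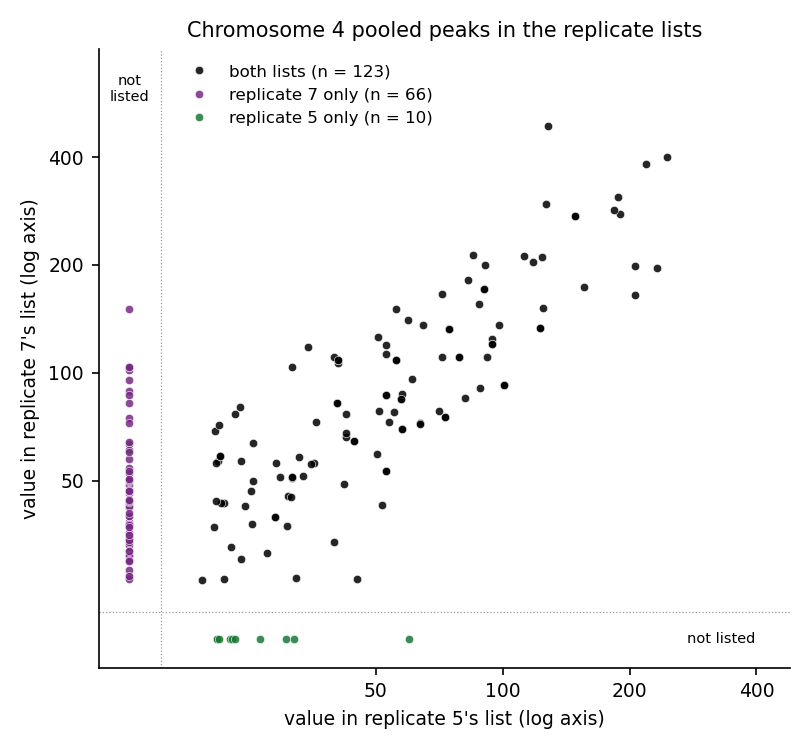
Each point is a pooled peak of chromosome 4 with its value in replicate 5's list (x axis, log) and in replicate 7's list (y axis, log), for the 123 in both lists (black). Pooled peaks that overlap the same replicate peaks fall on the same point. The 66 in replicate 7's list only (purple) stand in the strip at the left and the 10 in replicate 5's only (green) in the strip at the bottom; the 7 in neither are not drawn.

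Transposable elements held 17 of the 206 summits (8.25%, exact 95% interval 4.88 to 12.9%) and 25.1% of the bases of chromosome 4, against 0.272% of summits and 5.74% of bases on the other arms. Of the members among the 15000 strongest pooled peaks, 2.70% lay in them. The elements were INE-1 for 9 summits, 1360 for 7 and mariner2 for 1; both INE-1 and 1360 are known as DNA transposons common on chromosome 4. The strongest, with 182, lies in the element 1360 at the TSS of lncRNA:CR46488 and is the only IDR member of the 17; its bases were printed above. Another 1360 copy holds 3 summits whose nearest TSS is that of asRNA:CR44030. Replicate 7 alone held 9 of the 17 and both replicates 6. The sources used here do not say how reads that map to several copies were treated, and the part of that in these counts was not tested.

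The bases under the summits were AT-rich, with a median GC content of 35.6% on chromosome 4, against 42.8% on the other arms; windows of chromosome 4 without a pooled peak had 34.8%. Windows around the summits were searched on both strands for 10 short motifs, each also counted at the summits of the other arms and in windows of the same length on chromosome 4 without a pooled peak. The DRE, TATCGATA, was in 10 members (4.85%, exact 95% interval 2.35 to 8.75%), against 1.15% on the other arms and 1.91% in windows without a peak. Its members include the promoters of PlexA, Crk, Actbeta and PIP4K and the ey upstream peak, and 3 are in the IDR set. The others are an intergenic peak of 111, a toy intron peak of 68.1, an INE-1 peak of 43.0 upstream of zfh2, and 2 peaks of Cadps. Replicate 7 alone held the Crk, toy and zfh2 peaks. The Cadps peak at a TSS (41.4) was held by replicate 5 only. The other Cadps peak (40.8) lies in an INE-1 copy and was held by neither list. The BEAF-32 core CGATA, which is part of the DRE, was in 31.6%, against 24.1% and 24.4%. The GAGA factor element GAGAG was in 22.8%, against 27.2% and 17.0%, and the E-box CAGCTG in 3.40%, against 9.30% and 4.54%. The TATA box TATAAA was in 35.4%, against 21.4% and 38.3%, and the GATA element AGATAA in 13.6%, against 12.0% and 13.5%. The remaining motifs were rare: the Motif 1 core GGTCACAC was in 1.46% against 1.03% and 0.247%, the AP-1 element TGACTCA in 1.46% against 2.38% and 1.32%, the E-box CACGTG in 1.46% against 2.60% and 1.28%, and the Zelda element CAGGTAG in 0.971% against 0.973% and 1.22%. These shares were not tested, and a match is a description of the letters only.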

How the data were processed

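ChIP-seq peaks of 2 biological replicates were used. Per the labels and the deposited notes, the authors made 4 peak lists on dm6: replicate 5, replicate 7, the pooled replicates (30000 peaks each) and the IDR set (8574 peaks), each of the first 3 from alignments and 1 further file that the notes do not describe. The sources used here name no aligner, caller, version, filter or IDR threshold. Each deposited signal value is the caller's score on an unstated scale and served only to rank and describe the peaks of 1 list. The −log10 q-value that the authors deposited was not used to select or rank peaks. The lists hold no read counts, so depth is unknown. Intervals are exact (Clopper-Pearson, 95%) over peaks, treat each peak as independent and cover counting error only.

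Coordinates are 1-based. Genes, transcription start sites (TSSs) and transposable elements came from the Ensembl release 115 annotation and the NCBI RefSeq sequence of Release 6, the assembly of dm6; 18164 gene records, mature microRNAs included, remained once transposable elements were left out. Summits were sorted into 7 categories in a fixed order of precedence: a TSS at most 500 bp away, then 5′ UTR, coding sequence, 3′ UTR, exon of a noncoding gene, intron and intergenic. Peaks overlapping by at least 1 bp counted as shared. Chromosome 4 was compared with the other arms by Fisher's exact tests (5 shares) and exact binomial tests (density, 7 categories). They were two-sided, with Benjamini-Hochberg adjustment and a threshold of 0.05, in Python 3.11.15 with SciPy 1.17.1. Fisher's exact test was tried on simulated independent peaks, and the overlap rule and the adjustment on small made-up examples. The binomial tests were not tried in this way. Motifs were searched in 201 bp around each summit, and 101 bp were printed.

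The members, gene lists, motifs and tests were chosen with earlier results of these data known. Named peaks and genes are the 15 strongest peaks, the 6 genes with most summits, up to 4 members of each role list by TSS value, the peaks at the IDR threshold and in 1 or no replicate, and the longest stretches without a summit; the other genes without a TSS peak, the coding summits, the Syt7 peak and the DRE members were named after their values were seen. Alternatives covered TSS distance and type, 1 summit per distinct interval, overlap rule, peak strength, X alone, transposable elements, and each replicate left out.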

Additional observations from a re-analysis of the deposited data

How the results depend on the processing

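Density and the 5 odds ratios kept their direction and their side of the threshold in 43 of 56 recalculations. The untested shares and counts stayed within the interval of the main value, or within 1.5 times a count, in 20 of 25, and the number of called categories was 4 or 3. Both tallies include the setting with 1 summit per distinct interval. It left the chromosome 4 peaks unchanged, since all 206 have distinct intervals, so its agreement with their main values was fixed in advance. Peaks that overlap but have distinct intervals were not merged in any setting. Among the 15000 strongest pooled peaks the odds ratio for the IDR set was 0.709, that for overlap with both replicates 0.396 (exact test, adjusted p = 0.0663) and that for intergenic summits 0.913, and transposable elements held 2.70% of summits and TSS peaks were at 50% of coding genes. In the IDR set the promoter odds ratio was 1.86, transposable elements held 2.78% and TSS peaks were at 25% of coding genes. Density was 0.884 of the other arms per TSS and 0.930 per protein-coding TSS. With only protein-coding TSSs the intergenic odds ratio was 0.981, and against X alone 1.64 (exact test, adjusted p = 0.00944). Against windows rich in transposable elements, chosen after seeing the data, the odds ratios were 0.667 for the IDR set (exact test, adjusted p = 0.112) and 1.31 for promoters, and density was 2.46 times theirs. Such windows hold a larger share of transposable elements than chromosome 4 does, so they are not a matched comparison.

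Leaving out each replicate in turn gave odds ratios of 0.269 to 1.18 for overlap with the remaining lists and 0.912 to 1.12 for intergenic summits, densities of 0.469 to 0.792 and TSS peaks at 58.75 to 73.75% of coding genes. Against the bases of chromosome 4 it gave 0.843 to 1.51 for 5′ UTRs, 0.860 to 1.28 for noncoding exons and 0.893 to 1.04 for intergenic sequence, none of them past the threshold. The 3′ UTR ratio ran from 0.292 to 0.638 and lost its call without replicate 5, among the 15000 strongest peaks (0.186) and in the IDR set (0.382). Ratios that changed sides of 1, again not past the threshold, were 0.818 for noncoding exons and 0.951 for intergenic sequence with a TSS distance of 1000 bp, 0.969 for intergenic sequence with protein-coding TSSs, 0.733 for it among the 15000 strongest peaks, and 0 for 5′ UTRs in the IDR set. The causes were not tested. No paired analysis was possible because there is 1 group. The unknown depth and the fixed list length limit every statement on weak peaks.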
